A study of Mus musculus with 6 samples.

Results

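The genes described here are the tumor necrosis factor (TNF) superfamily ligands and receptors, together with the TRAF adaptors and the genes named for their induction by TNF. They were taken from the count lists by symbol, that is all symbols starting with Tnfsf, Tnfrsf or Tnfaip followed by a digit, Traf followed by a single digit, and Tnf, Lta, Ltb, Ltbr, Fas, Fasl and Cd40. The rule found 53 of the 22609 genes listed. They are 15 ligands, 5 receptors with a death domain, 14 other signaling receptors, 4 genes grouped as decoy receptors, 7 TRAF adaptors and 8 TNF-induced proteins.

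RNA was sequenced from primary adipocytes that had been grown from the stromal vascular cells of inguinal fat of male C57BL6 mice, aged 3 weeks by the sample labels, and differentiated in culture. Cells of 3 samples received miR-182-5p and cells of 3 samples received its control, and all other conditions were shared. The study's methods describe a synthetic miR-182-5p mimic or mimic control given with a lipid reagent, whereas the labels name electroporation, a control vector and miR182 overexpression, and the ages given also differ. Because neither source says that the samples of a group came from separate mice or cultures, p values measure only the spread between these samples, which may be technical.

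TNF family ligands are mostly membrane-bound proteins that assemble into trimers and cluster their receptors on the receiving cell. Receptors with a death domain can recruit adaptors that start cell death, and most other receptors bind TRAF proteins, which pass the signal to NF-κB and to stress kinases. In fat, TNF itself is known as an inflammatory cytokine made largely by macrophages, and it opposes adipocyte differentiation and insulin action.

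The RefSeq sequence of the miRNA is shown first, since its seed (bases 2 to 8, in capitals) is the part that pairs with target mRNA. It is listed at chr6:30165962-30165986 on the minus strand of GRCm38.p6. The mature sequence printed in the study's methods for this miRNA differs from the RefSeq sequence, also in the seed. All seed matches below rest on the RefSeq sequence.
mmu-miR-182-5p: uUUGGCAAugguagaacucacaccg

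The complement of the seed is TTGCCAA, the form searched here. In the longest 3′-UTR of each gene in the GENCODE M21 annotation of GRCm38 this run of 7 bases, searched on the sense strand, was present in 6 of the 53 TNF superfamily genes (11.3%), and in 3 of the 32 that had enough reads to be tested (9.38%). Among all 12498 tested genes with a 3′-UTR, 1566 held it (12.5%). The 3 tested genes are Tnfsf13b with 3 matches, Tnfrsf1b and Traf6, and the windows around these matches are shown because they are the only such runs among the genes whose change could be measured.
Tnfsf13b, bases 245 to 251 of the 3′-UTR: tctccagtcctTTGCCAAcacgcaccgca
Tnfsf13b, bases 1056 to 1062: gctatggttgaTTGCCAAataaaagcacc
Tnfsf13b, bases 1088 to 1094: ccttctgaccaTTGCCAAcaccgtttggt
Tnfrsf1b, bases 924 to 930: agccagctcttTTGCCAAaggattcatgc
Traf6, bases 695 to 701: cggtcatgtgcTTGCCAActgctgagtgt

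Capitals mark the match. In the second window of Tnfsf13b and in Tnfrsf1b the match is followed by an A, the extended form that is usually ranked above the plain 7 bases among miRNA sites. Tnfsf13b and Tnfrsf1b were lower with miR-182-5p and Traf6 was higher, with the values given below. Tnfsf10, Traf1 and Tnfrsf13b, which hold 1 match each, had too few reads to be tested. A match is a run of letters, and whether any of these sites is bound was not tested. Sites outside the 3′-UTR, such as the 5′-UTR site that the study reports for Nr1d1, were not searched.

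**Figure D1:**
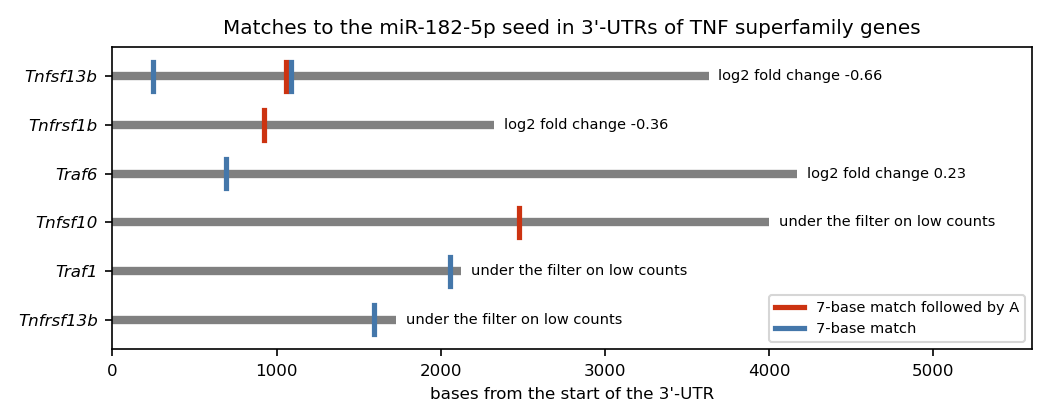
Longest 3′-UTR (grey bar, in bases from its start) of the 6 TNF superfamily genes with a match to the miR-182-5p seed, with each match as a vertical mark, red where an A follows. Tnfsf13b carries 3 matches along 3631 bases, and the 3 genes at the bottom were under the filter on low counts.

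Of the 53 genes, 32 passed edgeR's default filter on low counts. The other 21 were not tested, of which 15 had at most 4 reads in every sample and 3 (Fasl, Tnfsf14 and Tnfrsf17) had 0 in all 6. A count of 0 allows up to 3 reads, or 0.104 to 0.116 CPM by sample, counting error only. Total reads on genes ranged from 25869810 to 28796712 per sample, of which these 53 genes took 0.133% to 0.135% with mimic control and 0.140% to 0.144% with miR-182-5p mimic. A gene was called when edgeR's quasi-likelihood test gave a fold change of at least 1.5 in either direction (0.585 on the log2 scale) and a Benjamini-Hochberg adjusted p under 0.05. Values per sample below are CPM, the usual per-library scaling of read counts, here with library sizes adjusted by TMM factors, in the order of replicates 1 to 3.

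With miR-182-5p, 5 of the 32 tested TNF superfamily genes were called, 2 higher and 3 lower. The genes called higher are the receptors Tnfrsf12a and Tnfrsf25, and the genes called lower are the ligands Tnfsf15, Tnfsf13b and Tnfsf8. Of these ligands, Tnfsf8 passed the filter on low counts through the controls only. Among all 13117 genes tested, 1.97% were called higher and 5.48% lower. By the adjusted p alone, 19 of the 32 passed, 12 higher and 7 lower, where 23.2% of all genes tested passed higher and 23.5% lower. The median log2 fold change over the 32 genes was -0.03, beside 0.00 over all genes tested (-0.0043).

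**Figure D2:**
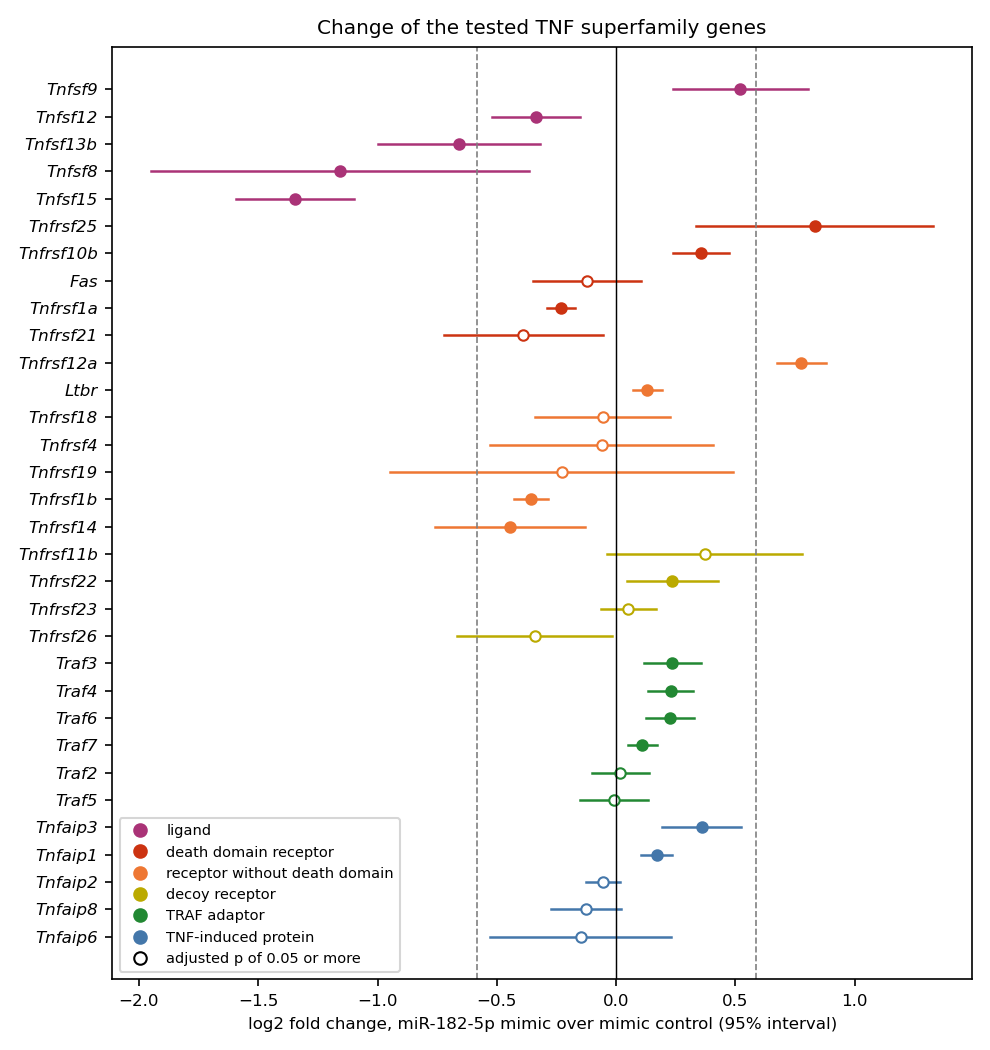
Log2 fold change (miR-182-5p mimic over mimic control) of the 32 tested genes with its 95% interval, colored by role, with open circles where the adjusted p was 0.05 or more and dashed lines at 1.5-fold. Of the 5 ligands only Tnfsf9 lies to the right of 0, and no TRAF adaptor or TNF-induced protein reaches a dashed line.

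The largest change with a small error was in Tnfsf15. It encodes TL1A, a ligand that binds the death domain receptor DR3 and costimulates lymphocytes. Its level was 6.09, 6.09 and 5.79 CPM with mimic control and 2.23, 2.43 and 2.41 CPM with miR-182-5p mimic, on 151 to 159 and 64 to 68 reads. All 3 mimic samples lay below all 3 controls. The log2 fold change was -1.35 (standard error 0.11, 95% interval -1.59 to -1.10, adjusted p = 3.85e-07 from edgeR), so the control level was 2.54 times that with the mimic. It was called whichever sample was left out, with log2 fold changes from -1.37 to -1.305. Endothelial cells are a known source of Tnfsf15, and the summed level of 6 endothelial markers was 8.68 to 9.92 CPM in controls and 5.35 to 6.20 CPM with the mimic. The drop in the sum came from Tek, whose mean fell from 6.05 CPM in controls to 2.43 CPM with the mimic (log2 fold change -1.31). Kdr (0.43), Cdh5 (-0.14) and Vwf (-0.51) did not pass the test. Pecam1, the defining marker, had 3 to 11 reads per sample. The part of such cells in the result was not tested, and in bulk RNA fewer cells of a type and less RNA per cell cannot be told apart.

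Tnfrsf25, which encodes DR3, went the opposite way from its ligand Tnfsf15. Reads numbered 19, 20 and 16 in the controls against 39, 27 and 40 with the mimic, or 0.746, 0.766 and 0.613 CPM against 1.34, 1.03 and 1.42 CPM. The groups did not overlap, and the lowest mimic sample, replicate 2, lay well under replicates 1 and 3. The fold was 1.78 (log2 0.83, standard error 0.23, 95% interval 0.34 to 1.33, edgeR adjusted p = 0.00882). The interval of Tnfrsf25 holds changes under 1.5-fold, since the counts are low.

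Tnfrsf12a encodes Fn14, a small receptor for the ligand TWEAK that growth factors and injury are known to induce. Its level was 87.2, 77.4 and 77.4 CPM with mimic control and 145.6, 131.2 and 137.4 CPM with the mimic. The lowest mimic sample exceeded the highest control by a wide margin relative to the spread within groups. The fold was 1.71 (log2 0.78, standard error 0.048, 95% interval 0.67 to 0.88, edgeR adjusted p = 1.47e-08), the smallest p among the TNF superfamily genes. Leaving out each sample in turn gave log2 fold changes from 0.74 to 0.84, all called. Tnfsf12, the gene of TWEAK, moved in the opposite direction but by less. It stood at 11.9, 11.4 and 11.7 CPM in controls and 10.1, 9.49 and 8.11 CPM with the mimic, a log2 fold change of -0.33 (standard error 0.086, edgeR adjusted p = 0.00522), which is short of 1.5-fold. In the GENCODE annotation 731 of the 1515 exon bases of Tnfsf12 are shared with Tnfsfm13, a read-through gene on the same strand that also covers Tnfsf13. Of the 5 tested muscle and pericyte markers 3 passed the adjusted p higher, as Tnfrsf12a did: Acta2 (log2 fold change 0.29), Tagln (0.19) and Cnn1 (0.20). None of these markers was called, and 23.2% of all genes tested passed the adjusted p higher. Myh11 (-0.02) and Des (-0.10) did not pass, and Rgs5 had 1 to 9 reads per sample. The 6 markers summed to 3455 to 3627 CPM in controls and 4131 to 4496 CPM with the mimic, mostly from Acta2 and Tagln. The part of such cells in the result was not tested.

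**Figure D3:**
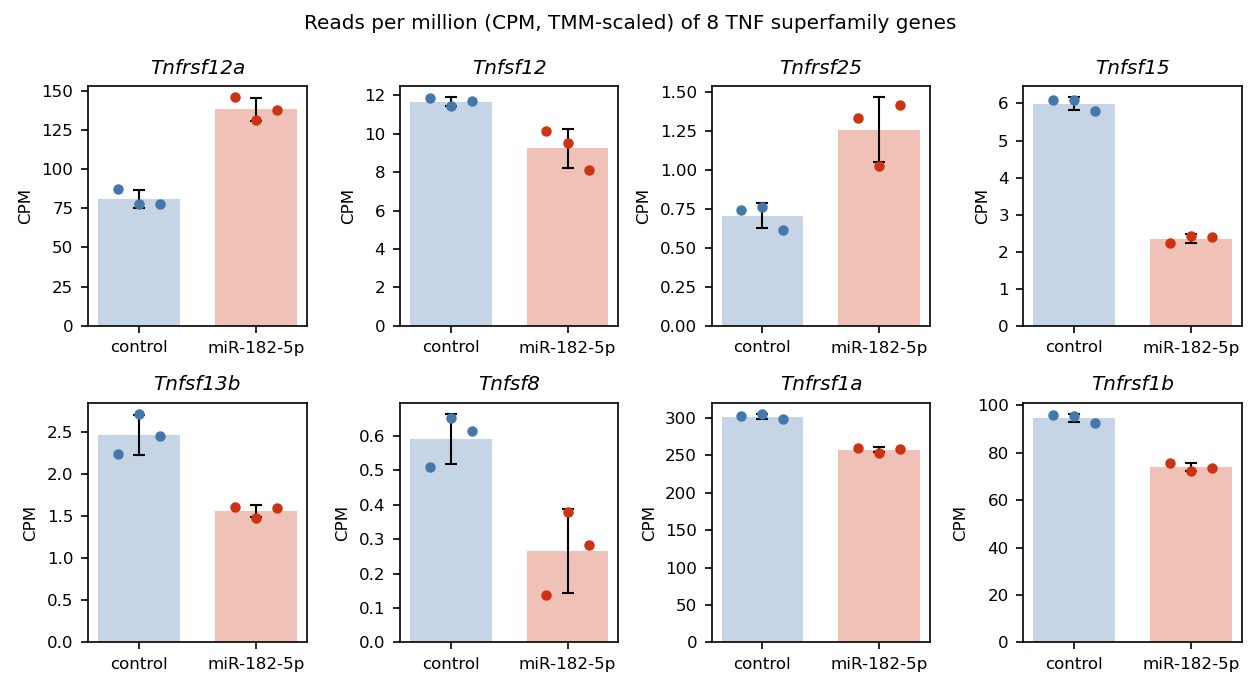
Level in CPM (linear axis from 0) of 8 TNF superfamily genes in mimic control (blue) and miR-182-5p mimic (red), with a point per sample, a bar at the mean and a whisker of 1 SD, n = 3 per group. All 8 genes passed the adjusted p, with Tnfrsf12a and Tnfrsf25 above and the other 6 genes below their controls.

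Tnfsf13b, whose 3′-UTR holds the 3 seed matches shown above, encodes BAFF, a survival factor for B cells that adipocytes are also known to make. It was at 2.24, 2.72 and 2.45 CPM in controls and 1.61, 1.48 and 1.59 CPM with the mimic, so the groups did not overlap. The log2 fold change was -0.66 (standard error 0.16, 95% interval -0.9999 to -0.32, edgeR adjusted p = 0.00353). Without control replicate 2, the highest control, the log2 fold change was -0.585, just under 1.5-fold, and the call was lost. Of the receptors of BAFF, Tnfrsf13b and Tnfrsf13c had at most 1 read in any sample and Tnfrsf17 had 0.

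Tnfsf8, the ligand of CD30, was covered by 13, 17 and 16 reads in controls against 4, 10 and 8 with the mimic. It passed the filter on low counts through the controls only, so that its appearance among the tested genes itself depended on the controls being higher. Its log2 fold change was -1.16 (standard error 0.37, edgeR adjusted p = 0.0189). The call was lost without control replicate 2 (adjusted p = 0.0638), control replicate 3 (0.0533) or miR-182-5p replicate 1 (-0.83, adjusted p = 0.0864), and DESeq2 gave no adjusted p for it. Its receptor gene Tnfrsf8 had 1 read in 1 control sample and 0 elsewhere.

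Tnfsf9, the ligand of the T cell receptor CD137, was the tested ligand that rose. Its level was 2.44, 2.60 and 2.49 CPM in controls and 3.91, 3.61 and 3.29 CPM with the mimic, with no overlap. The log2 fold change of 0.52 (standard error 0.13, edgeR adjusted p = 0.00487) was under 1.5-fold, so it was not called, although its 95% interval (0.24 to 0.80) reaches past that line. Without miR-182-5p replicate 3 it was called, at 0.586 (adjusted p = 0.00521). In the annotation Gm11110, on the opposite strand, overlaps 192 of the 1290 exon bases of Tnfsf9, and the sources used here do not say whether counting used the strand. Tnfrsf9, which encodes CD137, had 0 to 4 reads per sample.

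The remaining 10 ligand genes were under the filter. Tnf had 0, 1 and 2 reads in controls and 1, 0 and 2 with the mimic, which is within the limit that a count of 0 allows, so a difference in Tnf was not detectable at this depth. Lta and Ltb, the lymphotoxin genes, had 0 to 3 reads per sample. Tnfsf10, the death ligand TRAIL, had 1, 1 and 8 reads in controls and 9, 3 and 7 with the mimic, and Tnfsf4 and Tnfsf18 had at most 6. The counts of Tnfsf11 and Tnfsf13 were lower with the mimic in every sample. Tnfsf11 (RANKL, the osteoclast differentiation factor) had 9, 13 and 24 reads against 6, 5 and 6. Tnfsf13 (APRIL, a close relative of BAFF) had 9, 22 and 16 reads against 8, 8 and 3. In an edgeR fit without the filter both were called, with log2 fold changes of -1.52 (adjusted p = 0.0114) and -1.395 (adjusted p = 0.019).

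The cells that commonly make these ligands were scarce by their markers. Of 8 macrophage markers 4 were under the filter, Emr1, the classical one, had 2 to 6 reads, and the 8 summed to 14.5 to 15.6 CPM in controls and 12.4 to 15.8 CPM with the mimic. Of the 4 tested, Lyz2 was called lower (log2 fold change -0.63, edgeR adjusted p = 0.0324), in the direction of the ligands called lower, and Cd14 (-0.59), Cd68 (-0.24) and Csf1r (0.11) did not pass. The part of macrophages in the results for the ligands was not tested. All 7 lymphocyte markers were under the filter, with Cd3d, Cd8a and Ncr1 at 0 in every sample and sums of 0.191 to 0.383 CPM in controls and 0.0354 to 0.152 CPM with the mimic. The 9 adipocyte markers all had enough reads, and 8 passed the adjusted p, 7 lower and 1 (Lep) higher. Their sum was 12110 to 12880 CPM in controls and 8273 to 9365 CPM with the mimic. The 9 stromal markers, of which 5 passed lower and 1 higher, summed to 41070 to 42890 and 36140 to 37350 CPM. Of all genes tested, 23.5% passed lower and 23.2% higher. The part that these shifts in adipocyte and stromal markers have in the results was not tested.

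Per length of exon, the most abundant receptors stood above every ligand, although Tnfrsf25 and Tnfrsf19 lay as low as Tnfsf13b and Tnfsf8. Expressed as RPKM, CPM per kilobase of the exons that GENCODE M21 lists, Tnfrsf1a was the highest at 116 ± 1.34 (SD, n = 3) in controls, followed by Ltbr at 58.0 ± 1.203, Tnfrsf12a at 41.8 ± 2.94, Tnfaip2 at 34.5 ± 1.12, Tnfaip1 at 33.1 ± 0.967 and Tnfrsf1b at 24.8 ± 0.448. Tnfaip2 and Tnfaip1 are neighbors in this order whose control samples differ by little more than their SD. With the mimic the order changed, since Tnfrsf12a reached 71.5 ± 3.74 (SD, n = 3) and stood above Ltbr at 63.5 ± 0.401. The highest ligand was Tnfsf12 at 7.69 ± 0.151 RPKM in controls, followed by Tnfsf9 at 1.95 ± 0.066 and Tnfsf15 at 1.79 ± 0.052. Exon lengths come from another build than the mm9 counts, so these levels are approximate.

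**Figure D4:**
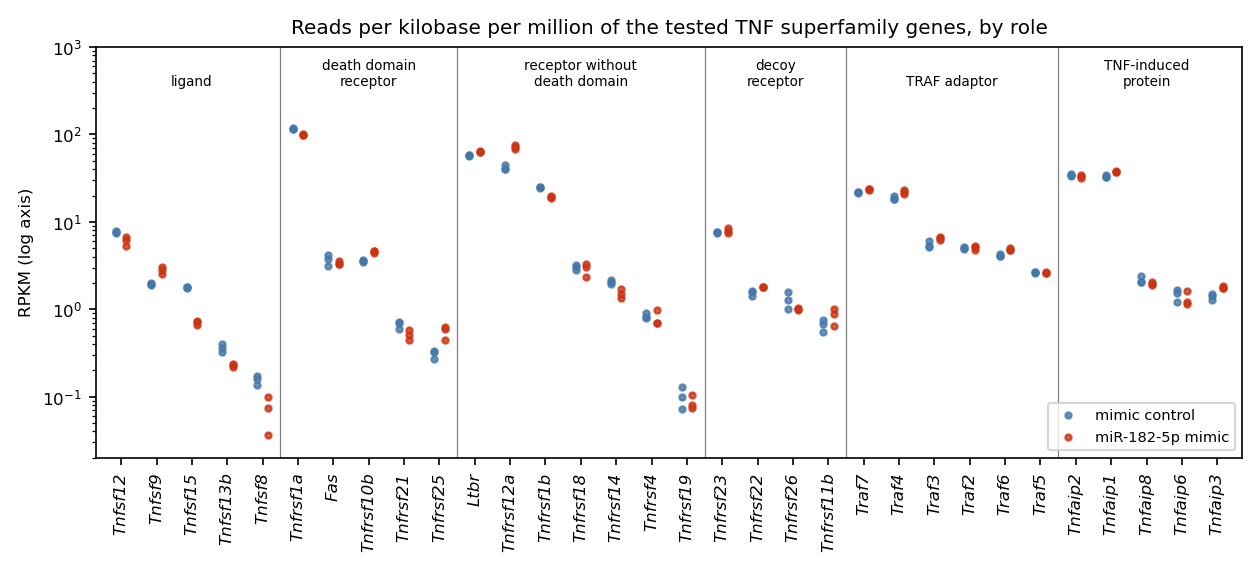
Level of the 32 tested genes in RPKM (log axis), grouped by role and ordered by the control level within each role, with a point per sample in blue for mimic control and red for miR-182-5p mimic. Tnfrsf1a is the highest at 116 RPKM in controls, and the highest ligand, Tnfsf12, is at 7.69.

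Both receptors of TNF were lower with miR-182-5p. Tnfrsf1a, the widely expressed death domain receptor, was at 302.5, 304.7 and 297.9 CPM in controls and 259.5, 253.4 and 258.4 CPM with the mimic. Tnfrsf1b, the receptor without a death domain that holds a seed match, was at 95.9, 95.3 and 92.7 CPM in controls and 75.7, 72.4 and 73.5 CPM with the mimic. The groups of both genes were far apart relative to their spread. The log2 fold changes were -0.23 (standard error 0.027, edgeR adjusted p = 7.94e-06) for Tnfrsf1a and -0.36 (standard error 0.033, edgeR adjusted p = 9.02e-07) for Tnfrsf1b. Neither came near 1.5-fold: the 95% intervals were -0.29 to -0.17 and -0.43 to -0.29.

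Of the 5 death domain receptors, all were tested, and 3 passed the adjusted p, where 46.7% of all genes tested did. Tnfrsf10b, the mouse receptor of TRAIL, rose from 19.96, 18.95 and 19.19 CPM to 25.4, 24.9 and 24.0 CPM, a log2 fold change of 0.36 (standard error 0.054, edgeR adjusted p = 0.000102). Fas, the receptor of Fas ligand, stood at 8.60, 7.73 and 6.51 CPM in controls and 7.37, 6.79 and 6.80 CPM with the mimic. These groups overlapped, and the interval of its log2 fold change ran from -0.35 to 0.10 (edgeR adjusted p = 0.364). Tnfrsf21, which encodes DR6, did not overlap between groups, at 2.95, 2.87 and 2.45 CPM against 1.85, 2.39 and 2.09 CPM, but missed the threshold (log2 fold change -0.39, edgeR adjusted p = 0.0542).

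Among the receptors without a death domain, 7 of 14 were tested. Ltbr, the lymphotoxin β receptor, which opens the noncanonical branch of NF-κB signaling, was at 138.5, 138.0 and 133.4 CPM in controls and 150.6, 148.7 and 149.5 CPM with the mimic. Its change was small but exceeded the spread (log2 fold change 0.13, standard error 0.028, edgeR adjusted p = 0.00168). Tnfrsf14, the herpesvirus entry mediator that binds LIGHT, fell from 2.83, 3.14 and 2.95 CPM to 2.16, 1.94 and 2.44 CPM, a log2 fold change of -0.45 (edgeR adjusted p = 0.0218). Its adjusted p rose above the threshold without control replicate 2 (0.0724), without miR-182-5p replicate 2 (0.084) and with DESeq2 (0.0845). Tnfrsf18 (GITR), Tnfrsf4 (OX40) and Tnfrsf19 (TROY) did not pass, with 95% intervals of -0.34 to 0.23, -0.53 to 0.41 and -0.95 to 0.49, which hold changes well past 1.5-fold for Tnfrsf19 and just short of it for Tnfrsf4. Cd40, the receptor through which T cells help B cells, had 0 to 2 reads per sample, and Tnfrsf11a, the receptor of RANKL, also had 0 to 2.

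The 4 genes grouped here as decoy receptors, a class that binds ligand without passing a death signal, were all tested. Tnfrsf22 was at 6.84, 5.94 and 6.67 CPM in controls and 7.67, 7.59 and 7.62 CPM with the mimic (log2 fold change 0.24, edgeR adjusted p = 0.0429). Its adjusted p rose above the threshold when any single sample other than control replicate 1 was left out, to 0.158 at most. With the replicate number as a block its adjusted p was 0.0616, with DESeq2 0.136 and with upper-quartile factors 0.0543. Tnfrsf23 (log2 fold change 0.05), Tnfrsf26 (-0.34) and Tnfrsf11b (0.37), which encodes osteoprotegerin, the decoy of RANKL, did not pass. Tnfrsf22, Tnfrsf23 and Tnfrsf26 are close relatives, and reads that aligned to more than 1 place were kept apart from the genes, so their counts are uncertain.

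The TRAF adaptors that passed the test were all higher. Of 6 tested, 0 were called by edgeR, DESeq2 or limma-voom, 4 passed edgeR's adjusted p (and 4 an unadjusted p under 0.05), and Traf1 was under the filter with 0 to 2 reads per sample. Past the adjusted p were thus 66.7% of the 6 (4 genes), beside 46.7% of all genes tested. Traf3, which restrains noncanonical NF-κB signaling, was at 43.9, 37.9 and 39.0 CPM in controls and 47.4, 49.0 and 45.7 CPM with the mimic. Traf6, an ubiquitin ligase used by CD40, RANK and the IL-1 and Toll-like receptors, was at 32.2, 32.1 and 33.4 CPM against 37.3, 37.6 and 39.3 CPM. Traf4 was at 60.3, 64.4 and 60.5 CPM against 69.3, 71.6 and 76.2 CPM. The log2 fold changes of these 3 genes were of like size. They were 0.23 (edgeR adjusted p = 0.00312) for Traf3, 0.23 (0.00127) for Traf6 and 0.23 (0.00063) for Traf4. Traf7 rose by less (log2 fold change 0.11, edgeR adjusted p = 0.00487). Its exons overlap those of Caskin1 on the opposite strand and Rab26 on the same strand, by 267 bases at most. Traf2 and Traf5 did not pass, and their 95% intervals of -0.10 to 0.14 and -0.15 to 0.13 hold no change of 1.5-fold.

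Among the TNF-induced genes 5 of 8 were tested. Tnfaip3 encodes A20, the ubiquitin-editing enzyme that shuts off NF-κB signaling and is itself induced by it. It was at 9.19, 10.1 and 10.8 CPM in controls and 12.5, 13.4 and 12.7 CPM with the mimic, with no overlap and a log2 fold change of 0.36 (standard error 0.077, edgeR adjusted p = 0.00156). Tnfaip1, an adaptor of a cullin ubiquitin ligase, rose by 0.17 on the log2 scale (edgeR adjusted p = 0.000434). Tnfaip2, at 177.2, 166.1 and 172.6 CPM in controls and 169.1, 167.6 and 159.6 CPM with the mimic, overlapped between groups and did not pass (95% interval -0.13 to 0.01). Tnfaip6, which encodes the hyaluronan-binding protein TSG-6, and Tnfaip8 did not pass either, with log2 fold changes of -0.15 and -0.13. The 3 relatives of Tnfaip8 (Tnfaip8l1, Tnfaip8l2 and Tnfaip8l3) had at most 7 reads per sample.

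Promoters were compared because the receptors called higher and Tnfaip3 moved in the same direction. RefSeq start sites (GRCm38.p6, 250 bases before to 50 after the start) were matched to 44 of the 53 genes, with 49 windows. They were searched on both strands for 4 motifs, with matches allowed to overlap. The NF-κB motif, searched as GGGRNNYYCC (R is A or G, Y is C or T, N is any base), was in 8 of the 49 windows. It was in 8.46% of all 32851 windows in the table. Of the 8 genes with this motif, Tnfrsf25, Tnfaip3 and Traf3 passed the adjusted p higher and Tnfaip2 did not pass. Of the 32 tested members 12 passed higher, as did 23.2% of all genes tested, and so few genes with the motif cannot be compared with these shares. The others, Ltb, Tnfaip8l1, Tnfrsf8 and Tnfrsf9, were not tested. An AP-1 motif, searched as TGANTCA, was in 9 of the 49 windows of these genes and in 7.81% of all windows. A TATA box, searched as TATAAA, was in 7 of the 49 windows and in 13.6% of all windows in the table. A GC box, the binding motif of SP1 and searched as GGGCGG, was in 26 of the 49 windows and in 35.7% of all. The windows of Tnfrsf12a, Tnfrsf25 (the downstream of its 2 listed starts) and Tnfaip3 (the upstream of its 2) are shown 5′ to 3′ in the direction of the gene, with matches in capitals. They were chosen for their matches: the other Tnfrsf25 window holds 2 GC boxes and no NF-κB match, and the other Tnfaip3 window holds none of the 4 motifs.
Tnfrsf12a, chr17:23677400-23677699, minus strand: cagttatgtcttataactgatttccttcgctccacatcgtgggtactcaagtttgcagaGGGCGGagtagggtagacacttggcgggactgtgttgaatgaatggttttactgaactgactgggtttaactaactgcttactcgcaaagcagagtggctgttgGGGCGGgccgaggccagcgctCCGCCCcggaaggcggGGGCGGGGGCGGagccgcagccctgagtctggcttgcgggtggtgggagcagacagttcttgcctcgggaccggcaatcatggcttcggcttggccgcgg
Tnfrsf25, chr4:152116093-152116392, plus strand: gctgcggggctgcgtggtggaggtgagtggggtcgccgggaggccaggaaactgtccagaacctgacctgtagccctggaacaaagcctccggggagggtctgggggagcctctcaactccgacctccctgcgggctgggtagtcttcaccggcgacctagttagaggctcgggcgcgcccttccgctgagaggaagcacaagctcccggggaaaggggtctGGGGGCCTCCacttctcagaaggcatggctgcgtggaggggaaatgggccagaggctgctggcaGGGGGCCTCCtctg
Tnfaip3, chr10:19015361-19015660, minus strand: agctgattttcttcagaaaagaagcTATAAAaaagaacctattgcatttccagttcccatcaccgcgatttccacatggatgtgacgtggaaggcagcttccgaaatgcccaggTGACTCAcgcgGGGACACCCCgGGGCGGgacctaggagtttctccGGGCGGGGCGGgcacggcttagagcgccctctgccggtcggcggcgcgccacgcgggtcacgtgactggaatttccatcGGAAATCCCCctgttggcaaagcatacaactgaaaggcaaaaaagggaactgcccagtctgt

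The Tnfaip3 window holds 2 NF-κB matches, starting 125 and 12 bases before the transcript start, 1 AP-1 match and 3 GC boxes. It also holds 1 run of TATAAA, which starts 225 bases before the transcript start. The Tnfrsf25 window holds 2 NF-κB matches, one of them starting 28 bases before the start and the other after it. In the Tnfrsf12a window there are 5 GC boxes, and the letters of the other motifs were not found. These matches are descriptions of the letters, and their use by any factor was not tested.

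The other genes of the pathway were followed in 5 lists of 85 genes, of which 84 were found in the files and 73 had enough reads. Of the 73, 7 were called (3 higher and 4 lower), and 33 passed the adjusted p, 19 higher and 14 lower. These are 9.59% and 45.2% of the 73 genes, near the 7.45% and 46.7% of all genes tested. Of 25 kinases and ubiquitin editors and 14 tested genes of the receptor complex and cell death, 0 were called by edgeR, DESeq2 or limma-voom, while 7 and 4 passed edgeR's adjusted p and 11 and 5 had an unadjusted p under 0.05. Of the 10 tested NF-κB subunits and inhibitors 0 were called by these tools and 6 had an unadjusted p under 0.05. In that list 4 passed the adjusted p (40.0%, beside 46.7% of all genes tested), all higher (Nfkbiz 0.30, Nfkb2 0.20, Rela 0.16 and Relb 0.15 on the log2 scale). Those that did not pass were Rel (0.17), Nfkbib (0.15), Bcl3 (0.14), Nfkbie (-0.02), Nfkbia (-0.09) and Nfkb1 (-0.10). The list median was 0.15 beside the -0.0043 of all genes tested.

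Among family receptors that carry other names, Ngfr, the low-affinity nerve growth factor receptor, fell. Its mean was 11.9 ± 1.45 CPM in controls and 6.27 ± 0.691 CPM with the mimic (SD, n = 3 per group), and the log2 fold change was -0.92 (edgeR adjusted p = 7.32e-06). Relt and Eda2r, receptors of the same list, passed the adjusted p in the opposite direction, with log2 fold changes of 0.39 and 0.19. Of the 19 tested NF-κB-responsive genes 15 passed the adjusted p, 6 higher and 9 lower, and the 6 called ones were divided. The shares were 78.9% past the adjusted p and 31.6% called, beside 46.7% and 7.45% of all genes tested, in a list chosen with earlier results known. Ptgs2, the inducible cyclooxygenase gene, had a log2 fold change of 1.32, the chemokine gene Cxcl10 one of 0.97 and the cytokine gene Il6 one of 0.587. The matrix protease gene Mmp3 had one of -1.12, the chemokine gene Cxcl5 one of -0.89 and the adhesion molecule gene Icam1 one of -0.71. Il6 lay at the 1.5-fold line itself, and Cxcl10 overlapped between groups, with 1 mimic sample at the level of the controls.

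The 3 genes with the smallest p among those not called were Tab2, Vcam1 and Tnip1. Tab2, an adaptor that links TRAF6 to the kinase TAK1, rose from 101.9 ± 2.26 to 149.4 ± 2.62 CPM (SD, n = 3 per group; log2 fold change 0.55, edgeR adjusted p = 4.23e-09). Vcam1, another adhesion molecule gene, fell from 185.4 ± 3.10 to 128.4 ± 2.86 CPM (log2 fold change -0.53, edgeR adjusted p = 4.53e-09). Tnip1, which encodes a binding partner of A20, fell from 41.8 ± 0.871 to 28.0 ± 0.628 CPM, and its log2 fold change of -0.578 (edgeR adjusted p = 2.23e-07) was just short of 1.5-fold. Its 3′-UTR of 752 bases holds 2 matches to the miR-182-5p seed, and 5 of the 73 tested pathway genes held any (6.85%). None of the other 4 passed the test in the lower direction. The kinase gene Mapk8, with 2 matches of which 1 is followed by an A, and the deubiquitinase gene Cyld, with 1, rose by 0.14 (edgeR adjusted p = 0.0418) and 0.22 (edgeR adjusted p = 0.000902) on the log2 scale. Ikbkg and Birc3, with 1 match each, did not pass (log2 fold changes of 0.07 and -0.08).

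**Figure D5:**
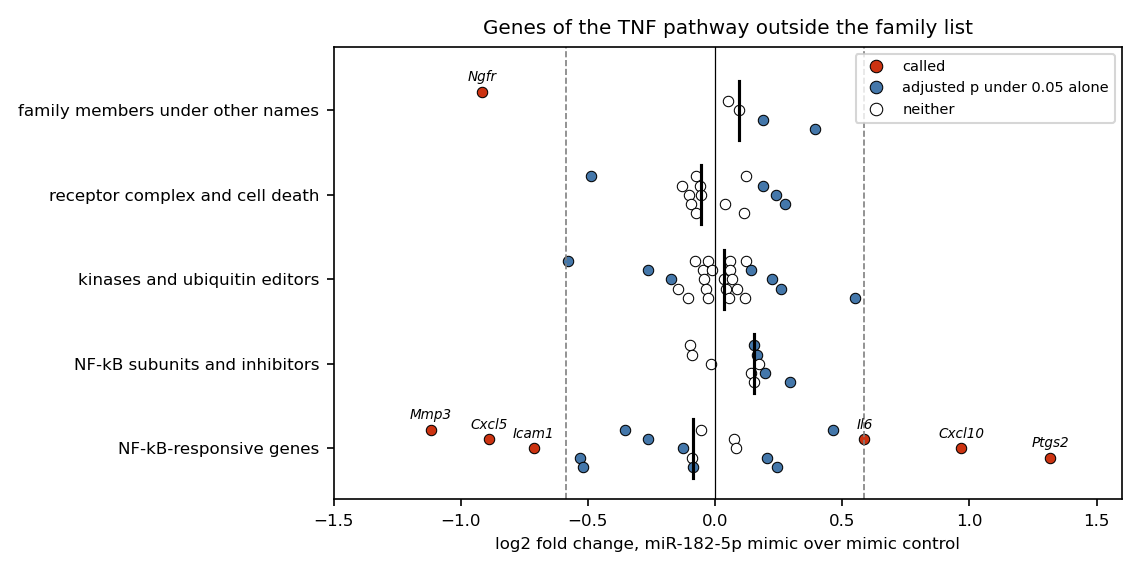
Log2 fold change (miR-182-5p mimic over mimic control) of the 73 tested genes in 5 pathway lists, a point per gene, red where called, blue where the adjusted p alone was under 0.05, with a black bar at each list's median and dashed lines at 1.5-fold. Called genes lie among the NF-κB-responsive genes on both sides of 0, apart from Ngfr at -0.92.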

How the data were processed

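Per sample, the authors deposited 1 list of gene symbols with raw counts of reads. Per the labels, libraries were stranded poly(A) mRNA, and the submitters' processing notes name bcl2fastq, TopHat2 and HTSeq with build mm9. Versions, annotation and strand setting are not given in the sources used here. The 5 tally lines closing each list were left out. Of uniquely aligned reads 12.7% to 13.0% lay outside genes and 0.652% to 0.667% were ambiguous between genes.

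Counts were fitted across all genes with edgeR 4.0.16 in R 4.3.3 (TMM, filterByExpr with a minimum count of 10, glmQLFit, glmQLFTest, two-sided, Benjamini-Hochberg over 13117 genes). The 2 groups had no block. On simulated data for this comparison (13042 genes, 200 changed by 1 on the log2 scale) 189 were recovered with 5 false calls. An exact permutation test of 3 against 3 cannot go below 0.1. Samples of a group differed by more than sampling noise (chi-square per degree of freedom 2.13 to 7.23). The largest values, 5.03 and 7.23, were those of miR-182-5p replicate 1 against replicates 2 and 3.

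The genes and lists were chosen with earlier results of these data known. Named are all called members, members past the adjusted p, Tnf, its receptors, Fas, Cd40, Ltbr, Tnfaip3, and from the pathway lists the called genes and the 3 of smallest p otherwise. NF-κB subunits and inhibitors, tested pathway genes with a seed match, Relt and Eda2r were named outside that rule. Otulin was looked for under Fam105b. Of the lymphocyte list 1 marker gene is not reported here. Values of the other members are given so that all 53 are accounted for. Alternatives were DESeq2 1.42.0, limma-voom (limma 3.58.1), other scaling factors and filters, a replicate block, leaving out each sample, a 2-fold cutoff and glmTreat. Figures used Python 3.11.15 and matplotlib 3.10.9.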

Additional observations from a re-analysis of the deposited data

How the results depend on the processing

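The direction of all 20 named members' fold changes held under every alternative that gave a value, and 243 of 258 values stayed on the same side of the member's own threshold, which was the call for members called and the adjusted p alone for the others. By the call, Tnfsf9 would also have crossed, without miR-182-5p replicate 3. The 5 called members became 2 when edgeR's glmTreat tested against 1.5-fold (1 higher, Tnfrsf12a, and 1 lower, Tnfsf15) and 2 with a 2-fold cutoff. That cutoff left 0 higher in edgeR's test, where the largest estimate for Tnfrsf25 under any alternative was 0.958 on the log2 scale. Without the filter on low counts 5 were called lower, as Tnfsf11 and Tnfsf13 then entered. With at least 10 reads required in every sample, and also with DESeq2, 4 were called, of which 2 were lower, without Tnfsf8. Leaving out 1 sample gave 3 to 7 called members, 2 to 3 of them higher and 1 to 5 lower, with 1 lower without control replicate 2 and 5 lower without control replicate 1 or miR-182-5p replicate 2. The number past the adjusted p alone stayed between 16 and 22. With the replicate number as a block, 5 members were called and 18 passed the adjusted p, and pathway genes called went from 7 to 6. Same-numbered samples did not deviate together (correlations of -0.18, -0.042 and -0.075), so the numbers are not read as pairs. Depth limits what can be said of the 21 untested genes and of Tnfrsf25, Tnfsf8 and Tnfrsf19.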
